A study of Mus musculus with 3 samples.

Results

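Receptors for lipids, metabolites, protons and histamine, adhesion receptors and orphan receptors of the G protein-coupled class were examined in dendritic cells (DCs) derived from mouse bone marrow. The genes were taken by name: every gene whose symbol began with Gpr and a number, Lpar, S1pr, Adgr, Cysltr, Hrh, Ffar or Hcar, each read by the probe set with the brightest mean. This gave 101 of the 17886 genes on the array. Of these, 48 (47.5%) had a signal above the median of all values, 5.58 on the log2 scale, on at least 1 array, against 62.8% of all genes. That median serves below as the floor: a lower value was raised to it before a difference was taken, and a difference against it is given as "at least". Of the 48 genes, 34 were above the floor on all 3 arrays, 10 on 2 arrays and 4 on 1 array. The lowest of the 48 by their highest value were S1pr1 (5.71), Adgrg3 (5.81) and Gpr83 (5.84), and the nearest below the floor were Gpr179 (5.55), Gpr20 (5.52) and Adgrl4 (5.39).

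Wild-type marrow was grown in granulocyte-macrophage colony-stimulating factor (GM-CSF) for 5 days, and the resulting DCs were separated in a cell sorter by PDL2, which binds the inhibitory receptor PD-1 on T cells. The groups were untreated PDL2-negative cells, PDL2-negative cells given lipopolysaccharide (LPS) at 100 ng/ml after the sort, and untreated PDL2-positive cells. How long LPS was present, and the strain, sex and number of mice, are not given in the sources used here. Each group had 1 array, so there is no spread between samples, no test between groups was possible, and a gene is called higher or lower only by a size of at least 2-fold. The number of arrays limits the precision. In bulk RNA of this kind, fewer cells of a type and less RNA per cell cannot be told apart.

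These receptors sit in the plasma membrane and, when bound by a ligand, exchange the nucleotide on a G protein inside the cell. Gs proteins raise cyclic AMP, Gi proteins lower it, Gq proteins release calcium, and G12 and G13 proteins act on the cytoskeleton. In DCs such receptors report on lysophospholipids, leukotrienes, oxysterols, fatty acids and acidity in tissue, and several steer migration. Adhesion receptors carry long extracellular parts that bind neighbouring cells or matrix. Some proteins that carry a Gpr name are multipass proteins of the Golgi or lysosome and are described apart from the receptors.

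Promoter windows of 5 members with large differences are shown to give the sequence context of the genes named most often below: Gpr84 (higher with LPS), Gpr65 and Lpar6 (lower with LPS), and Adgrg6 and Ffar4 (higher in PDL2-positive cells). Each window runs from 250 bases before to 50 bases after the annotated start, 5′ to 3′ on the gene's strand, from RefSeq on build GRCm38.p6. Gpr84 lies at chr15:103310389-103310688 on the minus strand, Gpr65 at chr12:98268385-98268684 on the plus strand, Lpar6 at chr14:73237641-73237940 on the plus strand, Adgrg6 at chr10:14544987-14545286 on the minus strand and Ffar4 at chr19:38096829-38097128 on the plus strand. Capitals mark matches to any of 7 strings searched on both strands.
Gpr84: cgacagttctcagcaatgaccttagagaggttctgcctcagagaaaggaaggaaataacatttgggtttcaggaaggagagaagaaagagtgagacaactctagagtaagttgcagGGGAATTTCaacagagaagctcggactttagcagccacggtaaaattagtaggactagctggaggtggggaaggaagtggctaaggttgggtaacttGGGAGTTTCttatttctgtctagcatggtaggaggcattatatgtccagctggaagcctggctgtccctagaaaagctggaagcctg
Gpr65: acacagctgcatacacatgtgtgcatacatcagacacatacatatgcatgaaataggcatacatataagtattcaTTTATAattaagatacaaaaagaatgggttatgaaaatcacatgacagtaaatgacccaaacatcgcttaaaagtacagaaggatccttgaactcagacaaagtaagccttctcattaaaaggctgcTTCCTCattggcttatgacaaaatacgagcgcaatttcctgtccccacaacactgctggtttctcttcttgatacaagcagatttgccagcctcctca
Lpar6: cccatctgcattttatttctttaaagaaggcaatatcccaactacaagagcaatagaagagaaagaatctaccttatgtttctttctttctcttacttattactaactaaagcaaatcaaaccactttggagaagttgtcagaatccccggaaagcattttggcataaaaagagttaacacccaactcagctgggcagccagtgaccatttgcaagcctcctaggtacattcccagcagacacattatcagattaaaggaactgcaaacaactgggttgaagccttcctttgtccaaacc
Adgrg6: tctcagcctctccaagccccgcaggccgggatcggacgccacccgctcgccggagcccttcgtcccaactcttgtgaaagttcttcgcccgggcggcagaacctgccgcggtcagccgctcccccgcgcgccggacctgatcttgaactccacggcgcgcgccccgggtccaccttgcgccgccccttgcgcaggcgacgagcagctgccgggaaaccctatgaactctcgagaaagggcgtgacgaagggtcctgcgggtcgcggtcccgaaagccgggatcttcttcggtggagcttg
Ffar4: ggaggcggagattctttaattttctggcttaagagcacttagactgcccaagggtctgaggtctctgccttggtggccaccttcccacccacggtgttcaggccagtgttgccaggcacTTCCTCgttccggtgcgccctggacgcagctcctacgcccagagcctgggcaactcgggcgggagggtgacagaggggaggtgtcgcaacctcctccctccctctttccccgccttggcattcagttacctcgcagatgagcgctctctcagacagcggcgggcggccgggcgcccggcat

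The strings were the PU.1 core GAGGAA, the AP-1 string TGANTCA, the shortened NF-kB string GGGNNTTTC, the C/EBP string TTGCNNAA, the interferon response string GAAANNGA, the cAMP response string TGACGTCA and the TATA box string TATAAA, and no match overlapped another in these windows. Gpr84 held the NF-kB string at 2 places, 134 and 37 bases before the start. Gpr65 held the PU.1 core and the TATA box string, both in reverse, and Ffar4 held the PU.1 core in reverse. No string matched in the windows of Lpar6 and Adgrg6, which says only that these letters are not in them. Over 32851 RefSeq windows of the same length, the PU.1 core was present in 28.3%, the interferon response string in 21.0%, the TATA box string in 13.6%, the C/EBP string in 10.8%, the AP-1 string in 7.81%, the NF-kB string in 4.36% and the cAMP response string in 1.79%. Longer forms had been searched first: an NF-kB string with 1 more C at its end was in 1.63% of all windows and in 0 of these 5, and an interferon response string with 2 more A was in 3.44% and in 0 of these 5. A window was found for 24 of the 31 members called in a comparison, of which 7 held the PU.1 core and 3 the NF-kB string (Gpr84, Gpr176 and Lpar1). A match describes the sequence and shows no binding. The Adgrg6 window had 69.0% G and C and 38 CpG pairs, and the Ffar4 window 63.7% and 19. The windows of Gpr84, Gpr65 and Lpar6 had 47.0%, 38.3% and 40.0%, with 3, 3 and 1 CpG pairs, against medians of 52.7% and 7 over all windows.

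All 9 DC markers, among them Itgax, Flt3, Zbtb46 and H2-Ab1, were above the floor on each array. So were 10592, 10571 and 10425 of the 17886 genes in PDL2-negative untreated, LPS-treated and PDL2-positive cells. The summed linear signal of the 9 was 44800, 47500 and 61700 in the same order. Pdcd1lg2, which encodes PDL2, had log2 signals of 8.40 in PDL2-negative untreated cells, 9.44 with LPS and 11.73 in PDL2-positive cells. Between the untreated samples 6 of the 9, Pdcd1lg2 included, were higher in PDL2-positive cells, against 10.1% of all genes. The cells were sorted by the protein that Pdcd1lg2 encodes, so its place in this count is not independent of the sort. Itgax was lower in PDL2-positive cells, by 1.67 on the log2 scale. After LPS 2 of the 9 were higher and 0 lower, against 9.17% and 13.8% of all genes. Markers of macrophages (7 of 8 listed were measured) were also above the floor on each array. Their summed linear signal was 55000 in PDL2-negative untreated cells, 40500 with LPS and 2830 in PDL2-positive cells. All 7 were lower in PDL2-positive cells than in the untreated PDL2-negative ones, against 13.0% of all genes. The summed signal of 8 neutrophil and precursor markers was 18500, 7790 and 18600 in the same order of arrays. Of the 8, 6 were lower after LPS, against 13.8% of all genes. B cell, T and NK cell, and mast cell, basophil and eosinophil markers summed to between 141 and 544 on every array. Of these markers, Cd79a, Ms4a1, Cd3d, Cd3g and Ncr1 were below the floor throughout. Cd3e (6.17 in PDL2-negative untreated cells, 6.29 with LPS and 6.19 in PDL2-positive cells), Cpa3 (7.21, 7.43 and 7.45) and Mcpt8 (7.61, 7.83 and 7.91) were above it on all 3 arrays, and Cd79b and Prg2 on 2. The part of these other cells in the differences below was not tested.

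With the floor at the median of all values, more members were lower than higher in each comparison, but after LPS a higher floor turned that balance round. After LPS, 8 of 47 members above the floor on either array were higher (17.0%, against 9.17% of 11000 genes) and 12 were lower (25.5%, against 13.8%). In PDL2-positive against PDL2-negative untreated cells, 5 of 48 members were higher (10.4%, against 10.1% of 10926 genes) and 18 were lower (37.5%, against 13.0%). The share of higher members in the PDL2 comparison was thus near that of all genes. The median log2 difference of members was -0.13 after LPS and -0.73 in the PDL2 comparison, against 0.02 and 0.01 over all genes above the floor. Over the 42 members above the floor on both arrays after LPS the median was 0.04, as it was over all such genes (0.04). In the PDL2 comparison it was -0.46 over 36 such members, against 0.02. With the floor raised to the 75th percentile of all values, 7 members were higher and 4 lower after LPS, and 4 were higher and 6 lower in the PDL2 comparison. No share of all genes was taken at that floor. Whether the turned balance after LPS is particular to the members or shared by all genes is therefore not known.

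Set directly against LPS-treated PDL2-negative cells, PDL2-positive untreated cells had 7 of 45 members higher (15.6%, against 15.6% of 11042 genes) and 15 lower (33.3%, against 12.6%), with a median of -0.28 against -0.05. Over the 34 members above the floor on both arrays the median was -0.27, also against -0.05. This comparison uses the same arrays as the other two, so its values follow from theirs. With the higher floor, 4 members were higher and 8 lower, again with no share of all genes to set beside them. Of the 48 members, 22 had their highest signal in PDL2-negative untreated cells, 19 with LPS and 7 in PDL2-positive cells. As shares these are 45.8%, 39.6% and 14.6%, against 28.4%, 40.0% and 31.6% of all genes above the floor. The members highest with LPS include some placed there by the normalization. Adgrb1 and Gpr83 had identical deposited values on all 3 arrays. The deposited values of Gpr137, Gpr35 and S1pr4 were highest in PDL2-negative untreated cells. In all, 31 of the 48 members were called in at least 1 comparison (64.6%, against 39.4% of all genes above the floor) and 8 in all 3 (16.7%, against 5.56%).

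**Figure D1:**
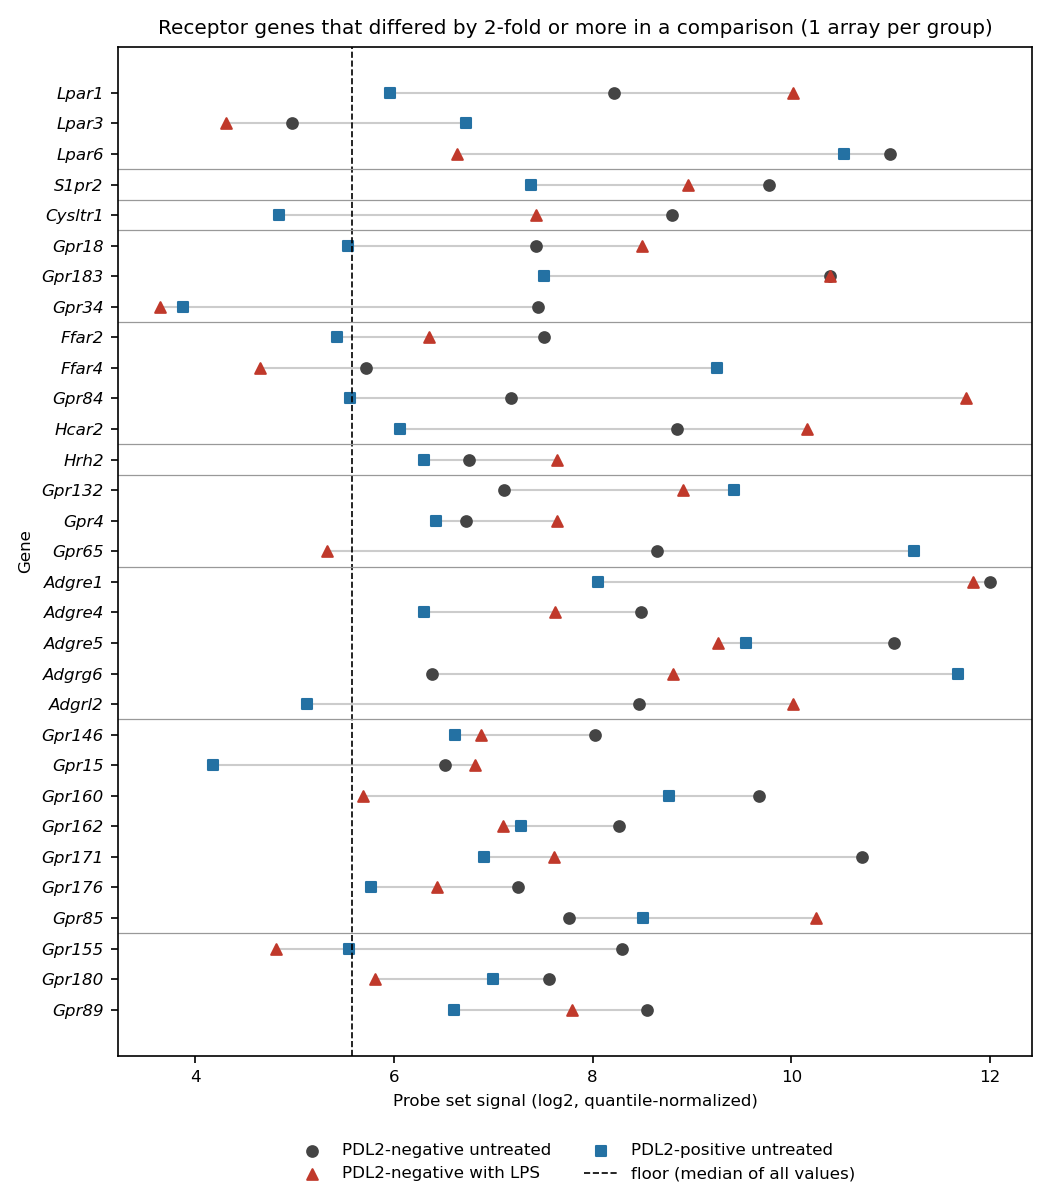
Log2 signal (horizontal axis) of the 31 receptor genes that differed by at least 2-fold in a comparison, grouped by ligand or class between grey lines. Circles are PDL2-negative untreated cells, triangles PDL2-negative cells with LPS and squares PDL2-positive untreated cells, 1 array each, so there are no error bars. The dashed line is the floor at 5.58. The squares of Adgrg6 (11.68) and Gpr65 (11.24) lie far to the right of their circles, and the triangle of Gpr84 (11.75) far to the right of its circle.

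The only error that these data give is technical. Where a gene had a second probe set, the log2 differences from the 2 brightest sets disagreed with a robust SD of 0.41 after LPS (4212 genes), 0.29 in the PDL2 comparison (4243 genes) and 0.44 in the third (4121 genes). It says nothing of variation between cultures or mice. Of the 48 members, 13 had 2 or more probe sets above the floor.

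Among receptors for lysophosphatidic acid (LPA), a lysophospholipid made from membrane lipids and plasma lysophosphatidylcholine, the members moved in different directions. Lpar6, which acts through G12 and G13, had log2 signals of 11.00 in PDL2-negative untreated cells, 6.64 with LPS and 10.53 in PDL2-positive cells. Only the LPS array was low, at 20.6-fold under the untreated one and 14.9-fold under PDL2-positive cells. Lpar1, which couples to Gi, Gq and G12/13, had 8.22, 10.02 and 5.96 in the same order. It was 3.49-fold higher with LPS and 4.78-fold lower in PDL2-positive cells than in the untreated PDL2-negative ones. Its 3 probe sets gave 1.80 to 2.08 after LPS but -2.26 to -0.17 on the log2 scale in the PDL2 comparison, so the size of the latter depends on the set. Lpar3 was below the floor in both PDL2-negative samples (4.97 untreated, 4.31 with LPS) and had 6.72 in PDL2-positive cells, at least 2.21-fold higher. Lpar2 and Lpar4 were below the floor on all 3 arrays.

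Sphingosine 1-phosphate (S1P) receptors guide cells out of tissue into lymph and blood, where S1P is abundant. S1pr2, which restrains migration through G12 and G13, had 9.78 in PDL2-negative untreated cells, 8.96 with LPS and 7.38 in PDL2-positive cells. The signal was 5.25-fold lower in PDL2-positive cells than in the untreated PDL2-negative ones. A second probe set gave a log2 difference of -0.82 there, short of 2-fold. S1pr4, largely confined to leukocytes, had 6.62, 6.70 and 6.14 and was not called. S1pr1, the receptor for lymphocyte exit, was barely above the floor without LPS (5.71) and at or below it on the other arrays (5.57 and 5.53). S1pr3 and S1pr5 were below the floor throughout.

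The cysteinyl leukotriene receptor Cysltr1, the target of asthma drugs such as montelukast, had 8.80 in PDL2-negative untreated cells, 7.43 with LPS and 4.84 in PDL2-positive cells. PDL2-positive cells were thus at the floor, at least 9.35-fold lower than PDL2-negative untreated cells, and LPS-treated cells were 2.59-fold lower. Both probe sets of Cysltr1 gave similar log2 differences (-1.37 and -1.15 after LPS, -3.23 and -3.06 in the PDL2 comparison). Cysltr2 was below the floor on all arrays.

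Gpr183 (EBI2) is the receptor for oxysterols that positions B cells and DCs within lymphoid organs. Its signal was 10.39 in PDL2-negative untreated cells, 10.39 with LPS and 7.51 in PDL2-positive cells. Only PDL2-positive cells were low, at 7.38-fold under PDL2-negative untreated cells. A second probe set gave -1.60 there and 1.19 after LPS on the log2 scale, so the probe sets did not agree on the LPS difference. Gpr34, a lysophosphatidylserine receptor, had 7.45 in PDL2-negative untreated cells and was below the floor with LPS (3.64) and in PDL2-positive cells (3.88), at least 3.65-fold lower in each. Gpr18, whose lipid ligands are debated, had 7.43, 8.49 and 5.53. It was 2.09-fold higher with LPS and at least 3.60-fold lower in PDL2-positive cells than in the untreated PDL2-negative ones. Its LPS call was lost with the deposited values, at 0.86 on the log2 scale. Gpr35, another receptor of debated ligand, had 6.80, 6.81 and 5.90 and was not called.

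Receptors for fatty acids and hydroxycarboxylic acids, which sense diet, gut bacteria and fasting, included genes with opposite orders over the arrays. Gpr84, a Gi-coupled receptor for medium-chain fatty acids in myeloid cells, had 7.17 in PDL2-negative untreated cells, 11.75 with LPS and 5.56 in PDL2-positive cells. LPS-treated cells were 23.9-fold above untreated cells, and PDL2-positive cells were at the floor, at least 3.02-fold below PDL2-negative untreated cells. Between the LPS and PDL2-positive arrays the gap was at least 72.3-fold. Ffar4, a receptor for long-chain fatty acids, gave the opposite order, with 5.72, 4.65 and 9.26. Its signal was 11.6-fold higher in PDL2-positive cells than in the untreated PDL2-negative ones, where it lay close to the floor.

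Hcar2, the Gi-coupled receptor of nicotinic acid and beta-hydroxybutyrate, had 8.85 in PDL2-negative untreated cells, 10.16 with LPS and 6.06 in PDL2-positive cells. It was 2.49-fold higher with LPS and 6.88-fold lower in PDL2-positive cells. Ffar2, the receptor for acetate and propionate, had 7.51, 6.35 and 5.43, which put LPS-treated cells 2.23-fold lower and PDL2-positive cells at least 3.81-fold lower than PDL2-negative untreated cells. Neutrophils also express Ffar2, and the neutrophil marker sum was lower on the LPS array but not on the PDL2-positive array. Whether neutrophils carried part of the Ffar2 signal on any array was not tested. Hcar1, the lactate receptor, was below the floor on all arrays.

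Histamine receptors showed small differences. Hrh2, which raises cyclic AMP through Gs, had 6.76 in PDL2-negative untreated cells, 7.65 with LPS and 6.31 in PDL2-positive cells. It was called only between the last pair of arrays, at 2.53-fold. Hrh1 had 6.48 in PDL2-negative untreated cells, 5.58 with LPS and a value below the floor in PDL2-positive cells (5.28). Hrh3, a mainly neuronal receptor, ran from 5.90 to 6.16, and Hrh4 was below the floor.

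Of the 3 proton-sensing members, 2 were higher in PDL2-positive than in untreated PDL2-negative cells, against 10.1% of all genes. A group of 3 is too small to read a share from. Gpr65 (TDAG8), which couples acidity to cyclic AMP through Gs, had 8.65 in PDL2-negative untreated cells, 5.33 with LPS and 11.24 in PDL2-positive cells. It was at least 8.42-fold lower with LPS and higher by 2.59 on the log2 scale in PDL2-positive cells, a gap of at least 50.5-fold between these arrays. Gpr132 is linked to lysophospholipids and oxidized fatty acids and had 7.11, 8.91 and 9.42. Unlike Gpr65, it was higher on both other arrays than on the PDL2-negative untreated array, by 3.49-fold with LPS and 4.99-fold in PDL2-positive cells, and its second probe set gave 1.32 and 1.83 on the log2 scale. Gpr4 had 6.72, 7.64 and 6.42 and was called only between the LPS and PDL2-positive arrays, at 2.33-fold.

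**Figure D2:**
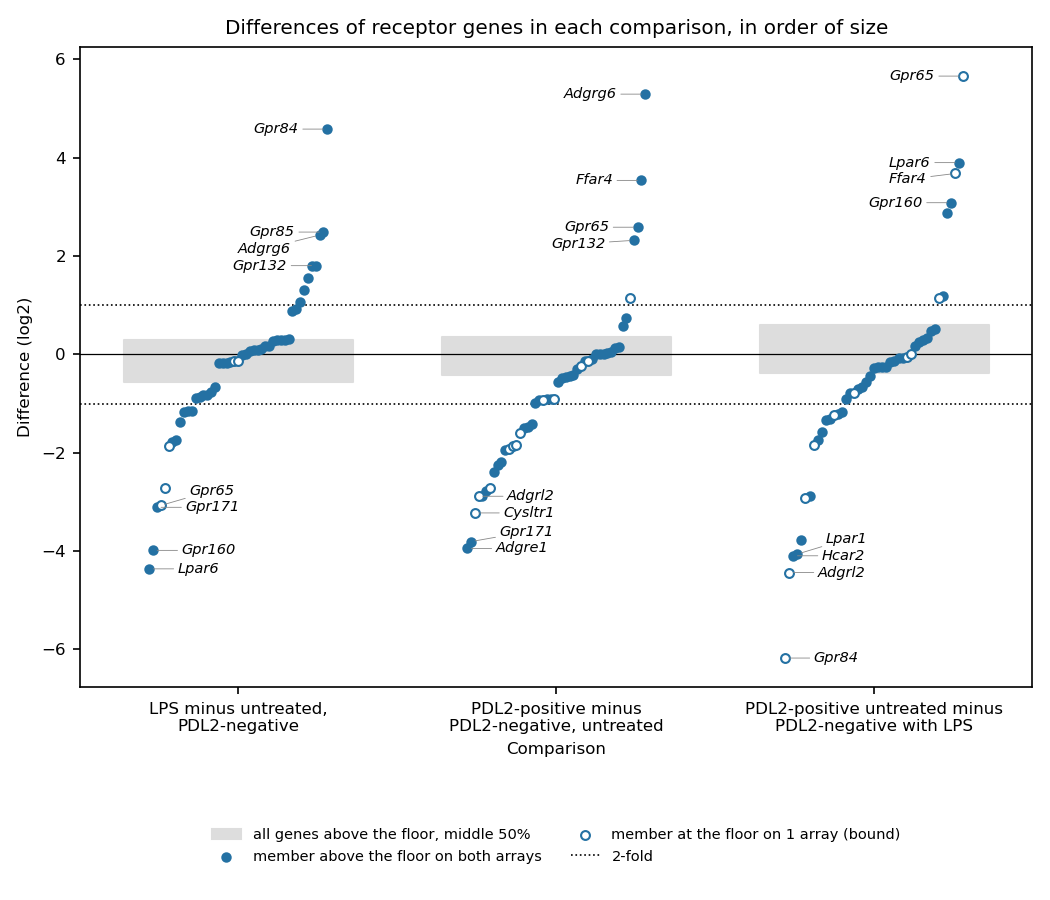
Log2 difference (vertical axis) of each receptor gene above the floor in the 3 comparisons, in order of size within each, from 1 array per group. Filled points were above the floor on both arrays, open points are bounds with 1 array at the floor, the grey band holds the middle 50% of all genes above the floor, and dotted lines mark 2-fold. Gpr84 (4.58) leads after LPS, Adgrg6 (5.29) in the PDL2 comparison and Gpr65 (5.66, a bound) in the third, where Gpr84 (-6.18, a bound) is lowest.

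Adhesion receptors had 8 of 22 members above the floor. Adgrg6 (GPR126), known for its role in Schwann cell myelination, had 6.39 in PDL2-negative untreated cells, 8.81 with LPS and 11.68 in PDL2-positive cells. Its signal was 39.2-fold higher in PDL2-positive and 5.37-fold higher in LPS-treated cells than in PDL2-negative untreated cells. The other probe set gave 3.85 and 1.67 on the log2 scale against 5.29 and 2.43, so the direction was shared but not the size. Adgrl2, a latrophilin, had 8.46, 10.02 and 5.12, at 2.93-fold higher with LPS and at least 7.40-fold lower in PDL2-positive cells. Both of its probe sets above the floor were called in these comparisons.

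The EGF-module adhesion receptors of myeloid cells were lower in PDL2-positive cells. Adgre1, which encodes a surface antigen widely used to mark mouse macrophages, had 12.01 in PDL2-negative untreated cells, 11.83 with LPS and 8.06 in PDL2-positive cells, a 15.4-fold lower signal in the last. The 7 macrophage markers were lower in the same comparison, with a median log2 difference of -5.06. Adgre4, a close relative found on myeloid cells, had 8.49, 7.62 and 6.31 and was 4.53-fold lower in PDL2-positive cells. Adgre5 (CD97), a receptor that binds CD55, had 11.03, 9.26 and 9.55, which put it 3.42-fold lower with LPS and 2.81-fold lower in PDL2-positive cells. Adgrb1, Adgrl1 and Adgrg3 were not called.

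The orphan group held every receptor not placed in another group, whether or not a ligand is known, and had 11 of 40 members above the floor. Gpr160 had 9.67 in PDL2-negative untreated cells, 5.69 with LPS and 8.77 in PDL2-positive cells. As for Lpar6, the LPS array alone was low, at 15.9-fold under the untreated one. Gpr171, a receptor related to the P2Y family, had 10.72, 7.61 and 6.91, at 8.64-fold lower with LPS and 14.0-fold lower in PDL2-positive cells. Gpr85, a highly conserved brain receptor, had 7.76, 10.25 and 8.51 and was 5.60-fold higher with LPS. Its 3 probe sets above the floor gave 1.88 to 2.74 on the log2 scale.

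Smaller differences were found for 4 further receptors of the orphan group. Gpr146 had 8.02 in PDL2-negative untreated cells, 6.88 with LPS and 6.61 in PDL2-positive cells. Its 3 probe sets ran from -2.32 to -0.10 after LPS, and the mean of its probe sets, at the floor on both other arrays, was short of 2-fold below PDL2-negative untreated cells (-0.94). Gpr162 had 8.27, 7.10 and 7.28, which is 2.25-fold lower with LPS and 1.99-fold lower in PDL2-positive cells. Gpr176, a receptor of the circadian clock in the brain, had 7.25, 6.43 and 5.77 and was 2.78-fold lower in PDL2-positive cells. Gpr15, a homing receptor of T cells for the colon, had 6.51, 6.81 and 4.18, and was called only between the LPS and PDL2-positive arrays (at least 2.35-fold lower in the latter). Gpr3, Gpr19, Gpr27 and Gpr83 were not called.

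Of the 8 genes above the floor that carry a Gpr name but encode proteins of the Golgi, lysosome or other membranes, or are a pseudogene of one, 3 were called. Over all genes above the floor, 39.4% were called in at least 1 comparison, a share close to this one. Gpr155, a lysosomal cholesterol sensor, had 8.30 in PDL2-negative untreated cells and was below the floor with LPS (4.81) and in PDL2-positive cells (5.55), at least 6.60-fold lower in each. Gpr180 had 7.56, 5.81 and 6.996 and was 3.36-fold lower with LPS. Gpr89, a Golgi pH regulator, had 8.54, 7.79 and 6.61 and was 3.83-fold lower in PDL2-positive cells. Gpr108 (9.47, 9.32 and 8.54), Gpr107 (8.26, 8.58 and 8.14) and Gpr137 (7.63, 7.72 and 7.64) stayed within 2-fold. So did Gpr137b (8.75, 8.56 and 8.90) and its pseudogene Gpr137b-ps (11.98, 11.31 and 11.56), whose near-identical sequences the probe sets may not separate.

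In all, 17 of the 48 members above the floor were called in no comparison, with log2 signals from 5.28 to 11.98 and no difference larger than 0.94. The deposited values of Adgrb1 and Gpr83 were identical on all 3 arrays, and those of Gpr3, Hrh3 and S1pr1 on 2 of 3. Differences printed for these 5 genes between arrays with identical values come from the normalization alone. None of the 5 was called. A further 53 members were at or below the floor on all 3 arrays.

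**Figure D3:**
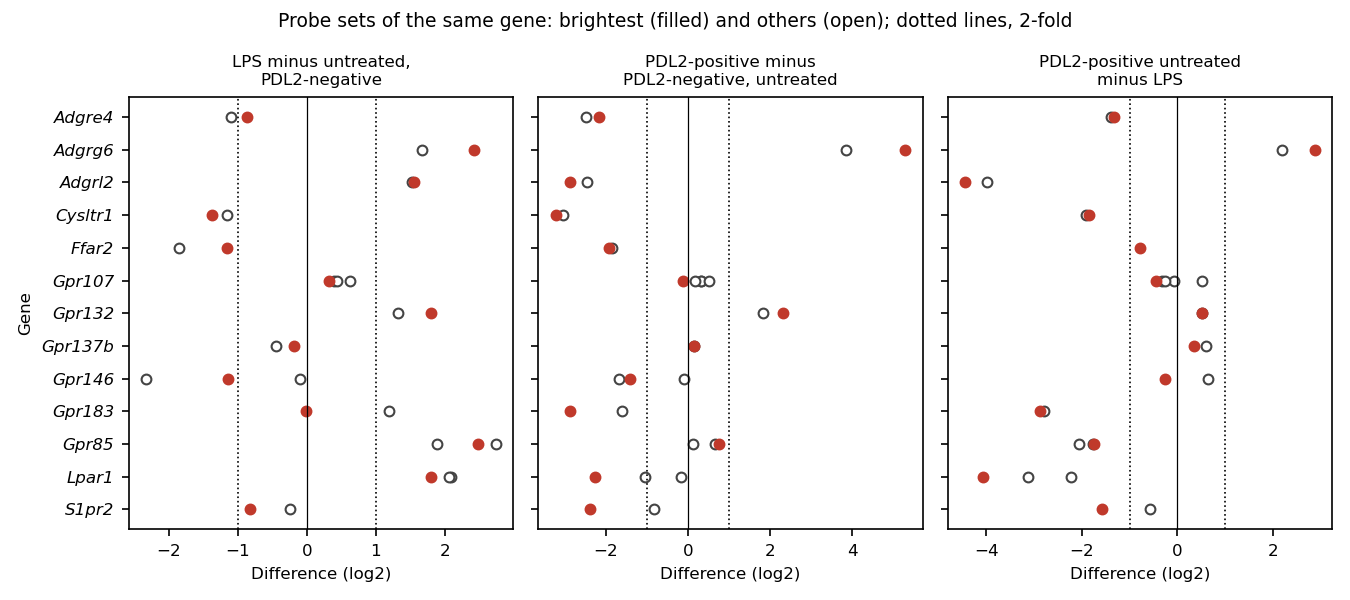
Log2 difference (horizontal axis) from each probe set of the 13 receptor genes with 2 or more sets above the floor, in the 3 comparisons, 1 array per group. Filled points are the brightest set and open points the others, with dotted lines at 2-fold. The sets of Cysltr1 and Adgrl2 lie close together, while those of Gpr183 after LPS (-0.01 and 1.19) and of Lpar1 in the PDL2 comparison (-2.26 to -0.17) lie apart.

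Genes that signal from these receptors or make and remove their ligands were taken from lists of 55 genes, of which 50 were measured. After LPS, 6 of the 38 above the floor were higher and 14 lower, against 9.17% and 13.8% of all genes, with a median log2 difference of -0.39 against 0.02. In the PDL2 comparison 5 of 37 were higher and 10 lower, against 10.1% and 13.0% of all genes (median -0.13 against 0.01). Between PDL2-positive and LPS-treated cells 9 of 38 were higher and 9 lower, against 15.6% and 12.6% of all genes (median 0.03 against -0.05).

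Among G protein alpha subunits, 3 of 9 above the floor were lower after LPS, where 13.8% of all genes were, and 3 of 9 in the PDL2 comparison, where 13.0% were. By the brightest probe set none of the 9 was higher in either, against 9.17% and 10.1% of all genes. Gnai3 was 1.997-fold higher in PDL2-positive cells, and its other probe set above the floor gave 1.16 on the log2 scale. The probe sets of Gna13 ran from 0.78 to 1.21 in the PDL2 comparison and from 0.31 to 1.20 after LPS. Gna15, a promiscuous Gq-family subunit of blood cells, had log2 signals of 8.50 in PDL2-negative untreated cells, 7.36 with LPS and 5.37 in PDL2-positive cells, the last lower by at least 2.93 on the log2 scale. Gna12 had 9.34, 7.92 and 8.32, and was 2.67-fold lower with LPS and 2.03-fold lower in PDL2-positive cells. Gnai2, the main Gi subunit of leukocytes, had 12.52, 11.02 and 11.69 and was 2.83-fold lower with LPS. Gnaq had 9.75, 8.94 and 8.52 and was 2.34-fold lower in PDL2-positive cells. Its 6 probe sets above the floor ran from -1.515 to -0.71 on the log2 scale there, so the call depends on the set. After LPS they ran from -0.80 to 0.98.

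Adenylyl cyclases, which make cyclic AMP under the control of Gs and Gi, included genes that differed in opposite directions. Adcy6 had 6.12 in PDL2-negative untreated cells, 7.99 with LPS and 11.40 in PDL2-positive cells, 39.0-fold higher in the last than in the first. Adcy7 had 11.68, 9.41 and 8.60, and was 4.82-fold lower with LPS and 8.46-fold lower in PDL2-positive cells. The other 4 cyclases above the floor were not called.

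Arrestins and receptor kinases switch active receptors off. Arrb1, which encodes beta-arrestin 1, lay at the floor with LPS (5.58) and had 10.14 in PDL2-positive cells, which differed from PDL2-negative untreated cells by 0.15. LPS-treated cells were at least 21.4-fold lower than untreated ones. Grk6 had 6.88 with LPS and 8.86 in PDL2-positive cells and was 4.33-fold lower with LPS than without, although another of its probe sets gave -0.28 on the log2 scale. Grk5 had 8.16, 6.74 and 7.15 and was 2.68-fold lower with LPS and 2.02-fold lower in PDL2-positive cells. Grk3 was 3.09-fold higher in PDL2-positive cells, with 9.82, 9.86 and 11.45. Arrb2 had 11.06, 10.08 and 12.02 and was called only between the LPS and PDL2-positive arrays, at 3.84-fold.

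Genes for S1P and LPA turnover were higher and lower on the LPS array. Sphk1, a kinase that makes S1P, had 7.39 in PDL2-negative untreated cells, 9.36 with LPS and 6.48 in PDL2-positive cells, 3.91-fold higher with LPS. Plpp1 and Plpp3, phosphatases that remove LPA and S1P outside the cell, were at least 14.2-fold and 5.70-fold higher with LPS. Plpp1 was below the floor without LPS (5.07) and in PDL2-positive cells (4.97) and had 9.41 with LPS. Plpp3 was at least 6.48-fold lower in PDL2-positive cells than in the untreated PDL2-negative ones, with 8.27, 10.78 and 5.11. Plpp2 (9.49, 8.28 and 8.60) and the S1P phosphatase gene Sgpp1 (9.69, 8.61 and 8.57) were 2.32-fold and 2.11-fold lower with LPS. Sgpp1 was also 2.18-fold lower in PDL2-positive cells than in the untreated PDL2-negative ones. Its 3 probe sets ran from -1.08 to -0.46 after LPS and from -1.42 to -0.63 in the PDL2 comparison on the log2 scale. Both calls of Sgpp1 thus depend on the set.

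Enzymes for the ligands of Gpr183 and Cysltr1 differed as well. Ch25h, which makes the precursor of the Gpr183 ligand, had 5.81, 11.87 and 8.49. It was 67.0-fold higher with LPS and 6.45-fold higher in PDL2-positive cells than in the untreated PDL2-negative ones, where it lay near the floor. Cyp7b1, also listed for the Gpr183 ligand, was below the floor on all arrays. Cyp27a1, a sterol hydroxylase, had 7.44 with LPS, 5.90-fold lower than without, and 9.22 in PDL2-positive cells, and Hsd3b7, which degrades that ligand, had 9.54, 8.74 and 10.42 and was called only in the third comparison, at 3.19-fold. In the leukotriene route, Alox5 (9.81, 7.96 and 6.66) and its activating protein gene Alox5ap (13.95, 12.59 and 10.15) were 8.85-fold and 13.9-fold lower in PDL2-positive cells. Ltc4s, which makes the first cysteinyl leukotriene, was 2.93-fold higher there, with 9.29, 7.51 and 10.85.

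Histamine genes completed the lists. Hdc, which makes histamine, had 6.02 in PDL2-negative untreated cells, 10.61 with LPS and 5.85 in PDL2-positive cells, 24.1-fold higher with LPS by a signal that lay near the floor without it. Hnmt, which methylates histamine, had 8.32, 7.02 and 4.03, at 2.47-fold lower with LPS and at least 6.70-fold lower in PDL2-positive cells. Aoc1, a histamine oxidase, had 5.64, 5.69 and 7.85 and was 4.62-fold higher in PDL2-positive cells.

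**Figure D4:**
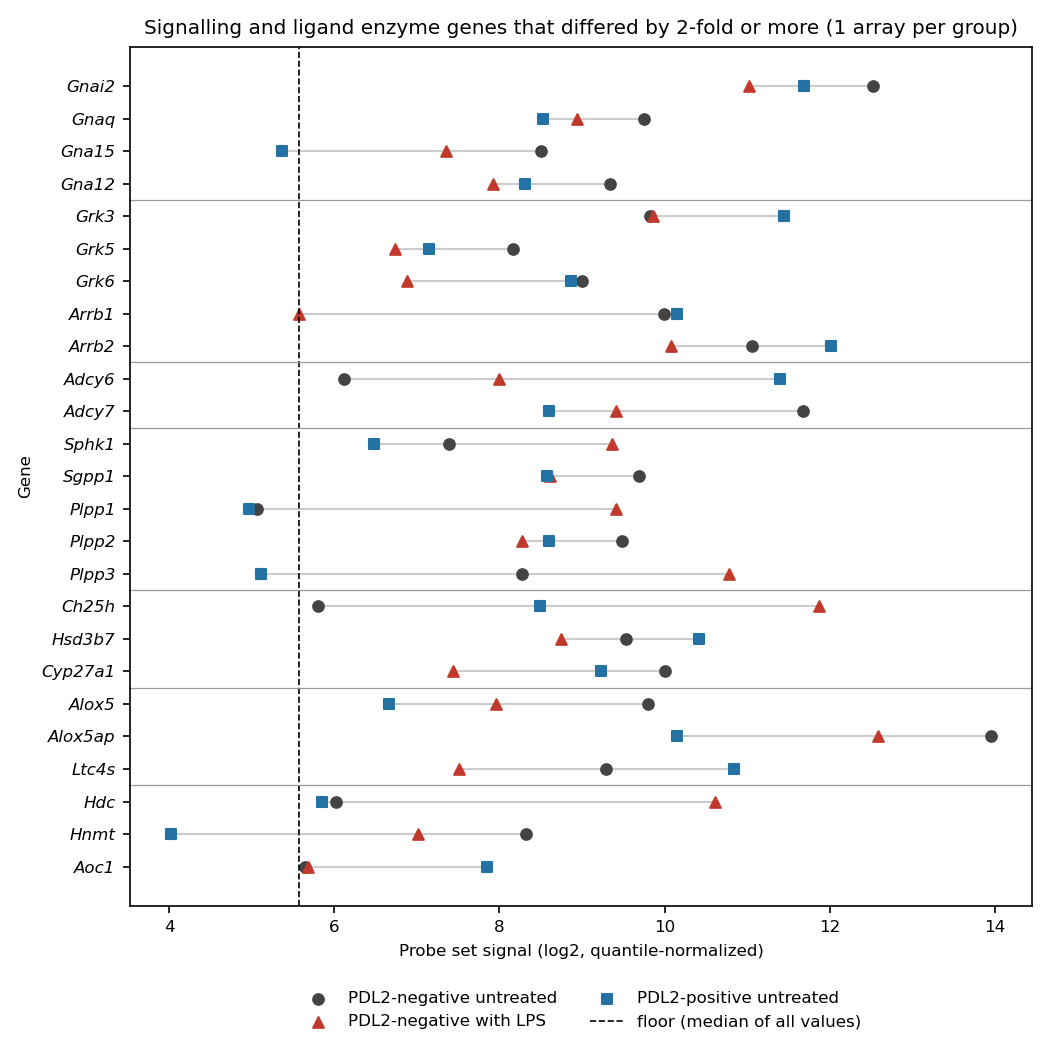
Log2 signal (horizontal axis) of the G protein, receptor kinase, arrestin, cyclase and ligand enzyme genes that differed by at least 2-fold in a comparison, grouped by list between grey lines. Symbols are as in the plot of receptor levels, with circles for PDL2-negative untreated, triangles for PDL2-negative with LPS and squares for PDL2-positive untreated cells, 1 array each, and the dashed line is the floor at 5.58. Arrb1 lies at the floor with LPS and at 10.14 in PDL2-positive cells, and Adcy6 reaches 11.40 in PDL2-positive cells.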

How the data were processed

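Biotin-labelled total RNA of 3 sorted samples was hybridized to Affymetrix mouse arrays, 1 array per group, per the labels. The deposited table holds 1 log2 value per probe set and array, a scale taken from the range of the values. How the authors corrected background, normalized and summarized probes is unknown here. Medians of the deposited values were 5.59, 5.56 and 5.59 in PDL2-negative untreated, LPS-treated and PDL2-positive samples.

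With 13 control probe sets left out of 38546, the values were quantile-normalized (Python 3.11.15, numpy 2.4.6, pandas 2.3.3). Of the 38533 probe sets, 33974 name 1 gene, 449 name several and were used for no gene, and 4110 are unnamed in the annotation table. Symbols were updated by Entrez number from RefSeq, where 33787 of those naming 1 gene were found. This changed no member's symbol. The 101 members have 160 probe sets. Probe sets were first reduced to 1 per gene, then values below the median were raised to it, and a difference of 2-fold was the call. The fold rule was run on simulated data in which differences larger than 2-fold were planted in genes well above the floor. The noise was set by hand. No difference close to 2-fold and no gene with a mean near the floor was among those planted, so calls of those kinds were not checked. Members, lists and rules were chosen with earlier results of these data known. Named genes are all members called in a comparison, the 10 others above the floor with the highest mean, the ligand receptors at the floor and the called list genes. Alternatives covered the normalization, floor, probe set choice, fold size and membership.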

Additional observations from a re-analysis of the deposited data

How the results depend on the processing

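No paired analysis was possible because each group has 1 array, and for the same reason no array could be left out. With the floor at the 75th percentile, 7 members were higher and 4 lower after LPS, which reverses the balance, 4 were higher and 6 lower in the PDL2 comparison, and 4 were higher and 8 lower in the third. The floor also removes genes from the comparison. No share of all genes was taken at the other floor or fold sizes, so the counts given for them describe the listed genes only. At 3-fold, 5 members were higher after LPS and 9 lower in the third comparison. The other member counts stayed within 1.5 times of those reported. Of the signalling and ligand genes, 3 were higher and 6 lower in the PDL2 comparison with the higher floor, 10 were higher there at 1.5-fold, and at 3-fold 6 were lower there and 6 after LPS. Of 65 member differences past 2-fold, 48 kept their direction and size class in every alternative that gave a value, and none changed sign. A difference for which an alternative gave no value was not counted as lost there. With the higher floor only 48 of the 65 were still compared, of which 33 stayed past 2-fold and 15 were under 2-fold. With the deposited values or median centring 1 was (Gpr18 after LPS), with averaged probe sets 2 were (both Gpr146), and with the second brightest probe set 2 of 26 were (both S1pr2). Leaving out probe sets that can match several transcripts, an alternative chosen after seeing the data, changed none of the 65 calls. Signals near the floor limit what can be read for the 14 members above it on only 1 or 2 arrays.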
